A study of Mus musculus with 2 samples.

Results

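Foxp1, Foxp2, Foxp3, Foxp4, Foxk1, Foxk2, Foxo1, Foxo3 and Foxo4, 9 forkhead genes of 3 subfamilies, were examined for Foxp2 binding in C1.1, a line of mouse tubular epithelial cells from the kidney. The genes were chosen by subfamily, without Foxo6 of the Foxo subfamily, from 49554 RefSeq genes, 21631 of them protein-coding. Each was then given the peaks whose summit lay inside it or within 100 kb of either of its boundaries. This took 4 of the 944 peaks in the list used here, which the authors called by chromatin immunoprecipitation and sequencing (ChIP-seq). The data came from 1 Foxp2 ChIP library, and 1 library of input DNA collected before the pull-down served as its control. Both came from C1.1 cells transfected with a Foxp2 CRISPR Activation Plasmid and stably selected. Such a plasmid raises transcription of the endogenous gene through a guided activator, so both libraries share this treatment, and cells without it were not analysed here. Whether the selected cells were 1 clone or a pool was not stated in the sources read for these cells. The peak list measures no expression, so the labelled cell type could not be checked against its markers. The list was known when the genes were chosen, and there is no replicate of the ChIP, so every value below is a description with no test.

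Forkhead factors bind DNA through a winged-helix domain whose preferred core resembles TGTTTAC. Foxp factors also carry a zinc finger and a leucine zipper, through which Foxp1, Foxp2 and Foxp4 pair with themselves and with each other, and they mostly act as repressors. Foxk factors have a forkhead-associated domain and recruit the Sin3 corepressor, while Foxo factors are kept out of the nucleus by insulin and Akt signalling and, once released, activate genes of arrest, apoptosis, metabolism and stress resistance. The Foxo3 protein has been studied in kidney tubules for its part in the response to hypoxia and in autophagy.

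No sequence under the 4 peaks was at hand. The nearest sequences for these genes were RefSeq promoters (GRCm38.p6, the build also named mm10), and the 250 bases before each listed transcription start are used here. Of the 9 genes, 6 had such promoters, 9 in all (3 for Foxp1, 2 for Foxp3, and 1 each for Foxp4, Foxk2, Foxo1 and Foxo3). Foxp2, Foxk1 and Foxo4 had no entry. The promoters below belong to the genes with a peak next to their upstream end, and the second of Foxp1 is shown for its pair of forkhead-like words. Each is printed 5′ to 3′ on the strand of its gene (the minus strand), and capitals mark a match to 1 of 6 words, namely TGTTTAC or the related TGTTTAT, or TATTTAT, or TATTTGT, or TGTTTGC or, last, TGTTTGT, on either strand.

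Foxp1, most upstream listed start, chr6:99520994-99521243: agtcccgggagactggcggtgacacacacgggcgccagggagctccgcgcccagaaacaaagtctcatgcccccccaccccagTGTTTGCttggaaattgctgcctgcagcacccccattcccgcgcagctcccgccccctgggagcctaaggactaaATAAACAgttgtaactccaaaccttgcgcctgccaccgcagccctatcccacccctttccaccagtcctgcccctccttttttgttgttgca

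Foxp1, second listed start, chr6:99266516-99266765: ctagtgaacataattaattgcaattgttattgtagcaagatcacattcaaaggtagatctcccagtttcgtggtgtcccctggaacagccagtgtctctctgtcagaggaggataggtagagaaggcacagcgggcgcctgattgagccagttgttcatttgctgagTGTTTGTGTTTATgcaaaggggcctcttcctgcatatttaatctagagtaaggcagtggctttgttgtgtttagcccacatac

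Foxo3, chr10:42276696-42276945: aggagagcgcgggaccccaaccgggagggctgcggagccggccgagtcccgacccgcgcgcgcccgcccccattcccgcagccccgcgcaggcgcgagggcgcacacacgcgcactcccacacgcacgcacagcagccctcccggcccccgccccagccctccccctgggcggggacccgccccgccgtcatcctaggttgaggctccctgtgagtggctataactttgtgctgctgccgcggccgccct

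The most upstream Foxp1 promoter held TGTTTGC 167 bp before the start and TGTTTAT, on the opposite strand, 92 bp before it. The second Foxp1 promoter held TGTTTGT and TGTTTAT at 83 and 77 bp, and these matches share 1 base. The third Foxp1 promoter and the promoters of Foxo3, Foxo1, Foxp4 and Foxk2 held none of the words, and each of the 2 Foxp3 promoters held 1. A word was thus present in 4 of the 9 promoters, which belong to 2 of the 6 genes, Foxp1 and Foxp3. Promoters of the same gene are not separate cases. Among 32619 promoters of the same length on 19 chromosomes, 21.7% held at least 1 of the words. The single words were present in 3.19% (TGTTTAC), 4.17% (TGTTTAT), 5.17% (TATTTAT), 3.29% (TATTTGT), 4.31% (TGTTTGC) and 5.87% (TGTTTGT). These words are rich in A and T, and the promoters differed in base content. The 2 Foxp1 promoters with a match had 60.8% and 45.2% G and C, that of Foxo3 had 76.4%, and the median of all promoters was 52.4%. None of the printed promoters overlapped a peak. The edge of the Foxp1 peak lay 1303 bp from the first promoter but 255781 bp from the second. That of the Foxo3 peak lay 941 bp from its own promoter.

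Of the 9 genes, 3 had a summit inside or within 100 kb, namely Foxp1 with 1 peak, Foxk1 with 2 and Foxo3 with 1. This is 33.3% of the genes, beside 8.97% of all genes, 10.1% of protein-coding genes and 12.0% of protein-coding genes of 50 kb or longer. All 3 also had a summit inside or within 10 kb (2.71% of protein-coding genes), and Foxk1 had a summit inside (1.63% of protein-coding genes). The rule used these positions, so nothing is read from the difference. Peaks at these genes fell into a strong pair and a weak pair. Foxp1 and the body of Foxk1 had folds over input of 26.9 and 20.5, against a median of 5.13 over the 944 peaks (range 2.84 to 38.8), and the other peak of Foxk1 and that of Foxo3 lay below the median, at 4.76 and 4.73. Fold here is the authors' ratio of the ChIP pileup (reads stacked at the summit) to the local background of the input, each with 1 added. Intervals printed with a fold are exact 95% Poisson intervals of the pileup, which cover counting error only.

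**Figure D1:**
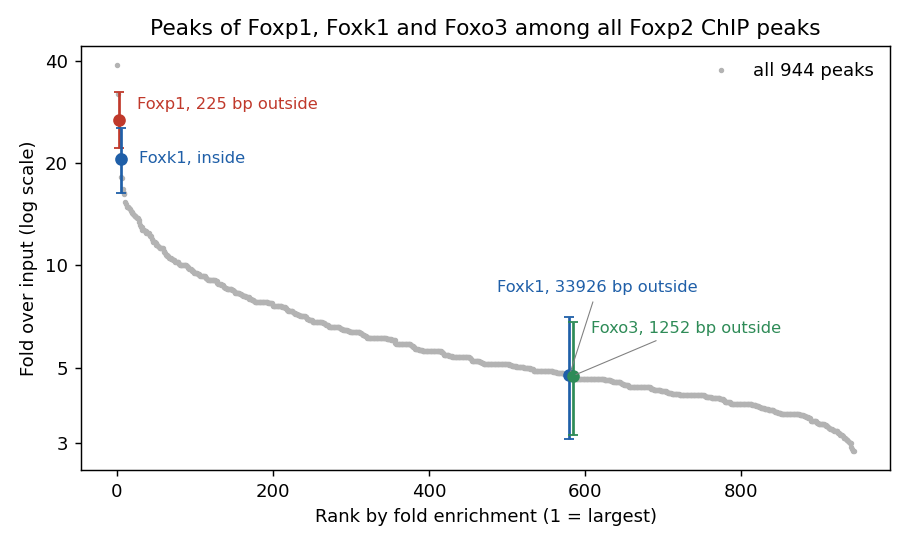
Fold over input (log scale) against rank by fold for the 944 Foxp2 ChIP peaks (grey), with the 4 peaks of Foxp1, Foxk1 and Foxo3 in colour. Bars are exact 95% Poisson intervals of the pileup. The peaks at Foxp1 and inside Foxk1 rank 3 and 5, and the other peaks rank 580 and 584.

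Foxp1 encodes the relative of Foxp2 that has the same kind of leucine zipper and can form dimers with it. Its peak (chromosome 6, 99522546 to 99523413, mm10) was 868 bp wide, with the summit at 99522971, near the middle (49.0% of the width). The gene runs from 98925342 to 99522746 on the minus strand, so the summit lay 225 bp beyond its upstream end. The peak also covered 201 bp of the annotated gene, at that upstream end. The nearest start in the RefSeq promoter table was 1978 bp downstream of the summit. Of the 930 summits on chromosomes with listed starts, 83 (8.92%) lay within 2 kb upstream of the nearest one and 56 (6.02%) within 2 kb downstream. The pileup at the Foxp1 summit was 109 reads over a background of 3.09 scaled reads. This gave the fold of 26.9 (22.1 to 32.4) and a −log10 q of 119.5. The background equalled the lowest value in the list, at which 408 peaks (43.2%) lay. By width the peak ranked 8 of 944, as 0.742% of the peaks were wider and the median width was 268 bp. Among the 5 peaks with the largest folds it was the widest, since the other four measured between 340 and 470 bp.

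The Foxp1 peak was the only peak in its window, and chromosome 6 had 0.288 peaks per Mb. The nearest other peak lay 725 kb away, on the far side of this 597 kb gene and 128 kb beyond its downstream end, just outside the window. That peak (chromosome 6, 98797392 to 98797655) had a fold of 9.04 (6.40 to 12.4), and the nearest annotated gene to it was the pseudogene Gm32308 at 39512 bp. Inside Foxp1 itself there was no summit. The nearest other gene to the Foxp1 peak was Eif4e3, which encodes a cap-binding protein of the translation initiation factor 4E family, 98908 bp away. Of the 944 peaks, 5 had a counting interval that overlapped that of Foxp1, so its exact rank was not resolved at this depth. Among the 123 protein-coding genes whose own boundary was within 1 kb of a summit, Foxp1 had the largest fold. The closest to it on the log2 scale were Btg1, an antiproliferative gene, at 14.9 (11.4 to 19.1), the homeobox gene Meis2 at 13.4 (10.2 to 17.5), and Atf6b, an unfolded protein response factor gene, at 12.7 (9.52 to 16.6). Their log2 folds were lower by 0.85, 1.00 and 1.08, and none of their intervals reached that of Foxp1. Of the 2192 protein-coding genes with a summit inside or within 100 kb, 7 had a stronger peak there than Foxp1 and 10 than Foxk1. Of the 944 peaks, 2 had a larger fold than that of Foxp1 and 4 than the stronger peak of Foxk1. Neighbouring genes thus share a peak in these counts. A peak at least as strong as that of Foxk1 was present for 0.0647% of protein-coding genes, again with neighbours sharing a peak. The rule's own values set this share too.

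Foxp2, the factor pulled down and the gene activated by the plasmid, had no peak in or within 100 kb of its 541 kb span (chromosome 6, 14901349 to 15441977). The closest summit was 1631 kb off, at a fold of 4.28 (2.59 to 6.71), inside Tes, which encodes testin, a LIM domain protein of focal adhesions. Foxp1 and Foxp2 are on the same chromosome and have similar spans, so their windows had nearly the same length, 797 and 741 kb. Foxp4, which is expressed with Foxp1 and Foxp2 in several epithelia, had no peak in its window (chromosome 17, 47867133 to 47924632). Its nearest summit lay 725 kb away inside Trerf1, a transcriptional regulator gene, with a fold of 7.16 (5.08 to 9.84). Foxp3, the lineage factor of regulatory T cells, had none either (chromosome X, 7579676 to 7595243). Its nearest summit was 9431 kb away with a fold of 4.88 (3.04 to 7.49), and the nearest gene to that summit was a noncoding RNA. Within the Foxp subfamily, 1 of 4 genes had a peak in its window, beside 10.1% of protein-coding genes. The rule used these positions, so nothing is read from this count.

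**Figure D2:**
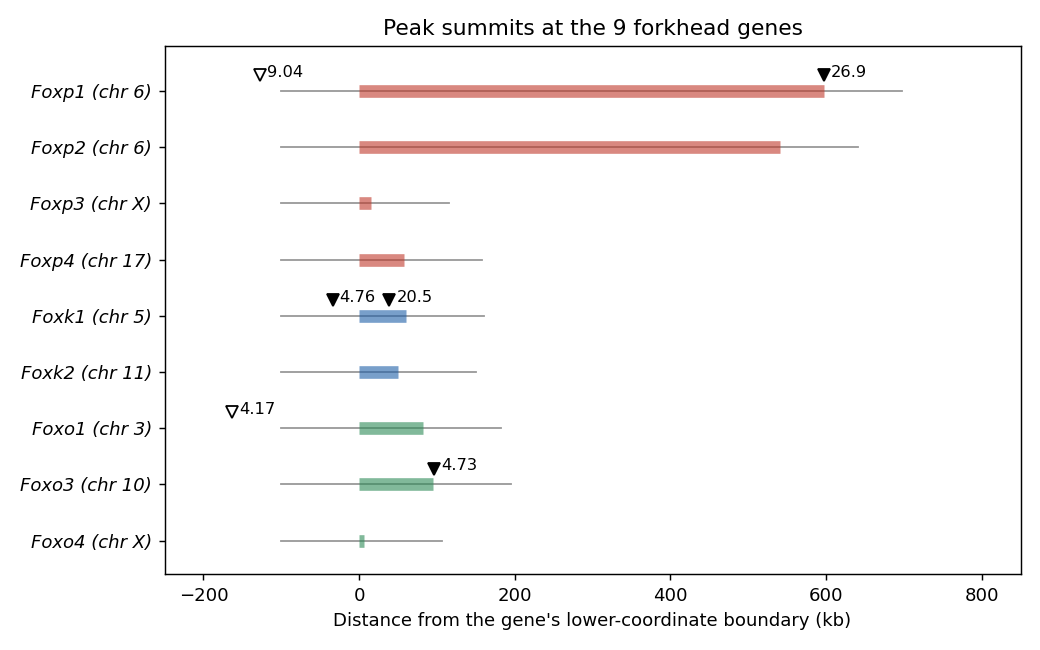
Maps of the 9 genes, each drawn from its lower-coordinate boundary (x axis, kb). Thick bars are gene spans, thin lines the 100 kb on either side, filled triangles the summits in the window and open triangles summits just outside it, each with its fold. Foxp1, Foxk1 and Foxo3 carry the filled triangles, with folds from 4.73 to 26.9.

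Foxk1 encodes a forkhead factor that represses autophagy genes in fed cells. It had 2 peaks in its window, as had 1.63% of protein-coding genes (at least 2). The stronger one (chromosome 5, 142440338 to 142440689) lay inside the gene, which runs from 142401497 to 142462015. The summit, at 142440548, lay 39051 bp from the lower and 21467 bp from the higher boundary, 64.5% of the way through by coordinate. Exons and introns were not analysed here, so the part of the gene at the summit is not given. The peak was 352 bp wide, with 83 ChIP reads over a background of 3.09. This gave the fold of 20.5 (16.4 to 25.4) and a −log10 q of 80.7. Its background was at the floor of the list, as at Foxp1. The intervals of the Foxp1 and Foxk1 folds overlapped, so their order was not resolved. Among 305 protein-coding genes with a summit inside and over 1 kb from a boundary, Foxk1 had the third largest fold. The closest in fold were Gpr39, a zinc-sensing receptor gene, at 21.1 (17.0 to 25.9), Tns4, a focal adhesion protein gene, at 18.2 (14.5 to 22.7), and Asic2, a sodium channel gene, at 16.8 (13.8 to 20.3).

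The second Foxk1 peak was weaker and lay outside the gene. It spanned 228 bp (chromosome 5, 142367505 to 142367732), with the summit 33926 bp below the lower boundary of Foxk1 and 72977 bp from the stronger peak. Its pileup was 23 reads over a background of 4.04, which gave the fold of 4.76 (3.09 to 7.05) and a −log10 q of 6.47. The background was 1.31 times the floor. The noncoding gene Gm31068 was much nearer, at 371 bp from the summit, and the noncoding gene Gm31127 lay between this peak and Foxk1. After Foxk1 the nearest protein-coding gene was Ap5z1, a subunit gene of the fifth adaptor protein complex, 95636 bp away. The assignment of this peak to Foxk1 thus rests on the 100 kb window. The next peak beyond the window lay 356 kb from Foxk1 inside Tnrc18 and had a fold of 12.2 (9.66 to 15.3).

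Foxk2, the paralogue of Foxk1 with an overlapping role in repression, had no peak in its window (chromosome 11, 121259987 to 121309900). The summit nearest to it was 2894 kb distant and had a fold of 3.39 (1.92 to 5.62), 10285 bp outside Timp2, which encodes an inhibitor of matrix metalloproteinases. Foxk1 and Foxk2 are of similar size, 60.5 and 49.9 kb. Chromosome 5 had 0.653 peaks per Mb and chromosome 11 had 0.517.

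Of the 3 Foxo genes, 1 (Foxo3) had a peak in its window, beside 10.1% of protein-coding genes. Foxo3 lies on the minus strand of chromosome 10 (42181845 to 42276695). Its peak (42277886 to 42278197) had its summit 1252 bp upstream of the listed start, which is also the upstream end of the gene. The peak was 312 bp wide and did not reach the gene. Its summit sat toward the side of the gene, at 19.7% of the width from the lower coordinate. The pileup was 27 reads over a background of 4.92, which is 1.59 times the floor. This gave the fold of 4.73 (3.17 to 6.80) and a −log10 q of 7.64. The fold ranked 584 of 944, and 836 other peaks had an overlapping interval. No other peak lay within 712 kb. The nearest other gene was the noncoding gene Gm38485, 3138 bp from the summit, and the next coding gene, Afg1l, was 34634 bp away. Among 174 protein-coding genes with a summit 1 to 10 kb outside, Foxo3 ranked 91. Arhgap45 and Kcnrg were among the closest in fold, both at 4.65 (3.02 to 6.88).

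Foxo1 and Foxo4, which share the Akt-controlled regulation of Foxo3, had no peak in their windows. At Foxo1 (chromosome 3, 52268337 to 52350109) the nearest summit was 163 kb below the gene, with a fold of 4.17 (2.56 to 6.47). It lay inside Maml3, a coactivator gene of Notch signalling, 379 bp from the boundary of that gene. At Foxo4 (chromosome X, 101254261 to 101260873) the nearest summit lay 7553 kb away inside Pcyt1b, a gene of phosphatidylcholine synthesis, with a fold of 7.37 (5.08 to 10.4).

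**Figure D3:**
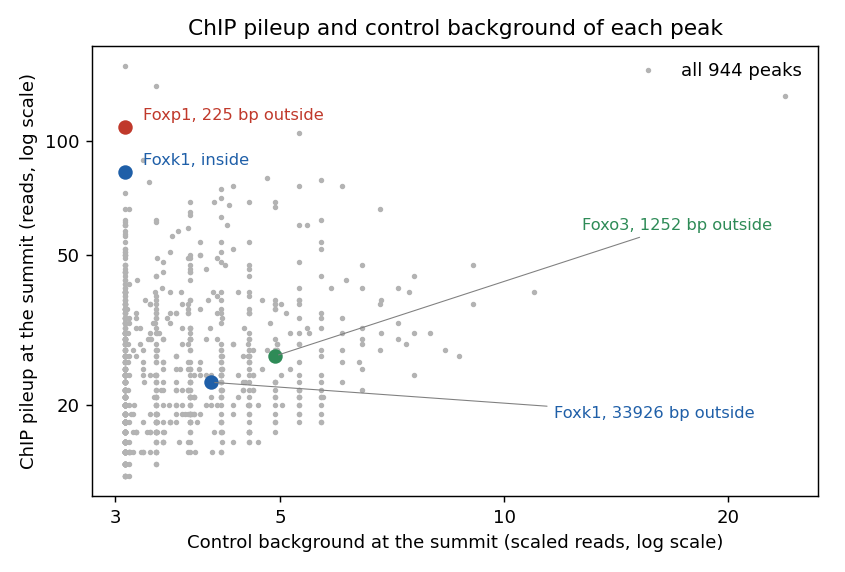
ChIP pileup (reads) against control background (scaled reads) at the summit of each peak, both on log scales, with all 944 peaks in grey and the 4 peaks of the forkhead genes in colour. The peaks at Foxp1 (109 reads) and inside Foxk1 (83 reads) sit at the lowest background, 3.09, and the weak peaks of Foxk1 and Foxo3 at 4.04 and 4.92.

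The control background, which enters the fold, differed between the pairs. The strong pair had backgrounds at the floor and the weak pair had higher ones, and the plot of pileup against background shows both. Of the positions, which the rule used, summits of 3 peaks lay outside the gene, and at Foxp1 and Foxo3, where the strand is listed, these were on the upstream side and within 2 kb of a listed start.

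The 6 genes with no peak lay on chromosomes with few and with many peaks. Chromosome X, with Foxp3 and Foxo4, had 7 peaks (0.0410 per Mb), and 1.24% of its protein-coding genes had a summit inside or within 100 kb. The shares were 9.66% on chromosome 3 (Foxo1), 11.2% on chromosome 6 (Foxp1 and Foxp2), 15.9% on chromosome 11 (Foxk2) and 16.6% on chromosome 17 (Foxp4). They were 15.9% on chromosome 10 (Foxo3) and 17.5% on chromosome 5 (Foxk1). Foxp4 and Foxk2 had no peak, and the shares of their chromosomes were near those of the chromosomes of Foxk1 and Foxo3. Any link between these shares and the absence of a peak was not tested. The smallest pileup at a summit in the list was 13 ChIP reads, so absence of a peak means no call in this list, not absence of binding. The list runs to peak number 983 with 39 numbers not analysed here. Of these, 9 are lower than the numbers of the Foxp1 and stronger Foxk1 peaks, and −log10 q never rose with the number in the list. Statements of no peak and all ranks hold within the 944.

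**Figure D4:**
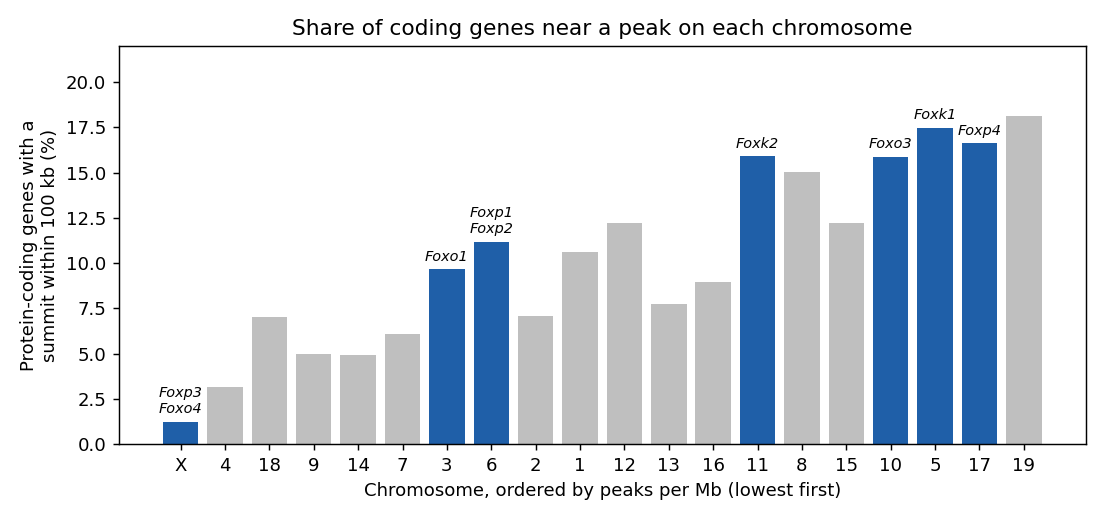
Share of protein-coding genes with a summit inside or within 100 kb (y axis, %) on each chromosome, ordered by peaks per Mb. Blue bars are the chromosomes of the 9 forkhead genes, from 1.24% on X (Foxp3 and Foxo4) to 17.5% on 5 (Foxk1).

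The number of genes with a peak depended on the distance allowed. Of the 9, 1 had a summit inside the gene, 3 had one within 10, 50 or 100 kb, and 4 within 250 kb, when the distal Foxo1 summit entered. Over the same steps the share of protein-coding genes rose from 1.63% to 20.3%, and that of genes of 50 kb or longer from 5.04% to 21.7%. At 250 kb the share of the forkhead genes was 44.4%.

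**Figure D5:**
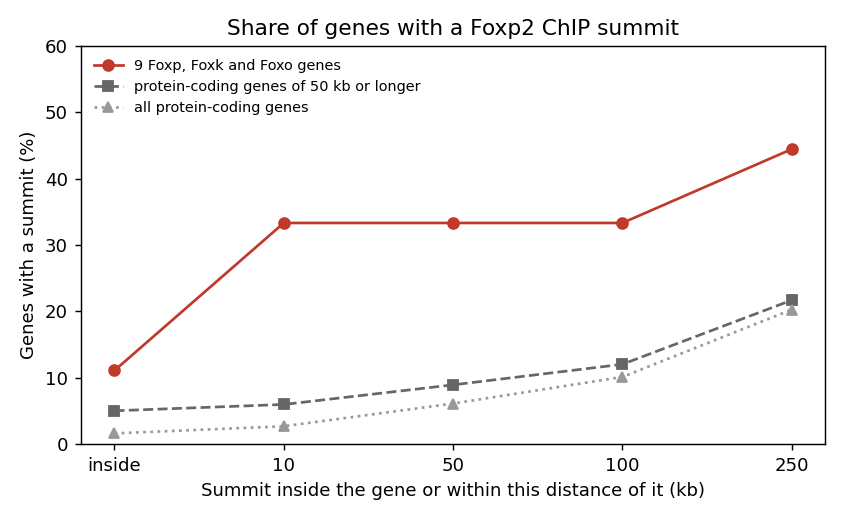
Share of genes (%) with a summit inside or within a given distance (x axis, kb, steps not to scale) for the 9 forkhead genes, all protein-coding genes and those of 50 kb or longer. The forkhead genes stay at 33.3% from 10 to 100 kb, while protein-coding genes go from 2.71% to 10.1%.

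Of 35 other forkhead genes, which include Foxo6 beside the other subfamilies, 0 had a summit inside or within 10 kb and 1 had one within 100 kb (2.86%, beside 10.1% of protein-coding genes). This was Foxq1, an epithelial factor linked to mesenchymal transition, 39462 bp from a summit with a fold of 5.62 (3.61 to 8.38). Cofactors and partners of Foxp factors numbered 25, among them the Ctbp corepressors and the NuRD subunits. Of these, 1 (4%) had a summit inside or within 10 kb, beside 2.71% of protein-coding genes. Within 100 kb there were 2 (8%, beside 10.1%). Nfatc2, a calcium-regulated factor that pairs with Foxp3 in T cells, had 2 summits inside, at 9.19 (6.71 to 12.3) and 5.23 (3.48 to 7.57). The NuRD subunit gene Mbd3 had a summit at 34304 bp with a fold of 6.58 (4.45 to 9.41), and that summit lay inside another gene, Tcf3. The other 23 genes had none within 100 kb. Of 17 partners of Foxk factors that could be matched, 0 had a summit within 10 kb. Within 100 kb there was 1 (5.88%, beside 10.1% of protein-coding genes), the Sin3 subunit gene Sap30, at 81236 bp with a fold of 5.62. The nearest protein-coding gene to that summit was Scrg1, 54416 bp away.

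The lists around the Foxo factors held further genes with peaks. They were written with some of these peaks known, so their counts are not independent evidence. Of 29 upstream regulators and partners, 3 had a summit inside (10.3% within 10 kb, beside 2.71% of protein-coding genes). They were the receptor genes Insr at 8.79 (6.20 to 12.1) and Igf1r at 5.62 (3.61 to 8.38), and Sgk3, a kinase gene of the Akt group, at 4.64 (2.85 to 7.19). Within 100 kb there were 8 of the 29 (27.6%, beside 10.1% of protein-coding genes). The largest fold was 14.4 (11.0 to 18.6), at 47424 bp from the deacetylase gene Sirt1, and that summit lay inside another gene, Dnajc12. The gene of the kinase Akt1 had a summit at 27578 bp with a fold of 8.15 (5.83 to 11.1). Gm46382 was the nearest protein-coding gene to that summit, 9487 bp away. Of 40 target genes of Foxo factors, 6 had a summit inside or within 10 kb (15.0%, beside 2.71% of protein-coding genes) and 10 within 100 kb (25.0%, beside 10.1%). Besides Insr, which is also in the first list, they were Btg1 at 14.9, Trib1, a pseudokinase gene, at 11.2 (8.26 to 15.0), the apoptosis gene Bbc3 at 8.23 (5.74 to 11.5), the cyclin gene Ccng2 at 5.13 (3.44 to 7.38), and Cdkn1a, which encodes p21, at 4.17 (2.62 to 6.33). Summits at Btg1, Trib1 and Ccng2 lay between 74 and 200 bp outside the gene. Of these 6 genes only Btg1 and Trib1 had a fold above 10, and both were below the folds of Foxp1 and Foxk1.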

How the data were processed

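Peaks of 1 Foxp2 ChIP library were called with MACS2 on mm10, with bcl2fastq also named, per the submitters' processing notes, and against the input, per the labels. No source used here gives the aligner, read filters, treatment of duplicates or versions. The deposited fold is the authors' ratio at the summit. Deposited −log10 values of p and q are the peak caller's. The deposited score restates −log10 q (its whole part after multiplying by 10, at most 1000, for 100% of the peaks) and was not used. No file of the input was used.

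Summits were the start plus the deposited offset, printed 1-based. Gene spans were those of RefSeq GRCm38.p6 on chromosomes 1 to 19 and X, and all 9 genes were matched by symbol. Library depth is unknown. The whole ChIP pileup and the background were recovered from fold = (pileup + 1) / (background + 1) and the Poisson p, with a largest miss of 2.05e-05 in −log10 p against at least 0.175 for the next best whole pileup. The recovery and the window counts were checked on simulated data. Analyses used Python 3.11.15, pandas 2.3.3 and scipy 1.17.1.

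The members and lists were chosen with earlier results of these data known. Named genes were the 9 genes, the genes nearest to their peaks, the 3 coding genes closest in log2 fold in the same position class for each member's strongest peak, and list genes with a summit inside or within 10 kb. List genes beyond 10 kb and the coding genes nearer to their summits were chosen after the values were seen. So were the genes at the nearest summits outside the windows and the listed-start counts. A gene that this rule names is not reported here. No tests were run. Alternatives were other windows, stricter peak sets, whole peaks in place of summits, coding genes only, a ratio without the added 1 and other quantities for ranking.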

Additional observations from a re-analysis of the deposited data

How the results depend on the processing

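Counted inside the gene only, 1 gene (Foxk1) had a peak in place of 3, since the summits at Foxp1 and Foxo3 lie just outside. The count was 3 within 10 kb, within 50 kb, with −log10 q of at least 5 and with any base of the peak in the window, 4 within 250 kb and 2 at or above the median fold. Without 1 added to pileup and background, the fold of the Foxp1 peak was 35.2 in place of 26.9 and that of the peak inside Foxk1 26.8 in place of 20.5. Both are above their counting intervals, which were computed with the added 1. The weak peaks were 5.70 and 5.49, inside their intervals. By −log10 q the peaks at Foxp1, inside Foxk1, outside Foxk1 and at Foxo3 ranked 3, 6, 526 and 477, and by pileup 4, 7, 474 and 347. The share of all genes near a summit was 10.1% with protein-coding genes only and 6.27% with −log10 q of at least 5. No paired analysis was possible because there was 1 ChIP library and no test. With 1 library the spread between replicates is unknown, and the intervals cover counting error only.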
